A study of Mus musculus with 4 samples.

Results

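Heat shock proteins and J-domain co-chaperones are the cell's machinery for folding, refolding and sorting proteins. They were taken from the gene table as the autosomal protein-coding genes whose symbol begins with Hspa, Hspb, Hspd, Hspe or Hsph, or with Dnaja, Dnajb or Dnajc followed by a number. This gave 71 of the 24454 genes in the table, of which 63 had enough counts to be tested among 14266 tested genes. The pattern also takes in 3 genes that carry a matching symbol but are not heat shock proteins (Hspbp1, Hspbap1 and Hspb11), and they are kept as a group of their own.

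Reads were counted in 4 RNA-seq libraries of mouse hearts at postnatal day 7 (P7), 2 from control (Ctrl) mice, named WH7 and WH8, and 2 from miR-128OE mice, named WH9 and WH10. Ctrl mice carry miR-128TetRE, a miR-128 transgene behind a tetracycline response element, and miR-128OE mice carry the same transgene together with α-MHC-tTA. The α-MHC promoter, which is active in cardiomyocytes (CMs), drives the transactivator tTA, and in this Tet-off system withdrawal of doxycycline (Dox) turns the transgene on, so miR-128 is raised in CMs while RNA was taken from hearts with all their cell types. The comparison asks which mRNAs differ in P7 hearts when CMs make more miR-128, and the labels do not say whether the libraries of a group came from separate animals, so p-values measure only the spread between these libraries, which may be technical.

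Chaperones of the HSP70 family bind exposed hydrophobic stretches of unfolded proteins and release them in a cycle of ATP hydrolysis. J-domain proteins, also called HSP40s or DNAJ proteins, bring clients to HSP70 and stimulate that hydrolysis, and HSP110 proteins exchange the nucleotide afterwards. Small heat shock proteins (small HSPs, the Hspb genes) hold unfolding proteins without ATP and are abundant in heart and skeletal muscle, where several of them sit on the sarcomere and the actin cytoskeleton. The ER (endoplasmic reticulum) and the mitochondria have their own HSP70 and J-domain proteins, and mitochondria also have the HSP60 and HSP10 chaperonin.

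The sequence behind the comparison is that of mature miR-128-3p, given here from RefSeq (GRCm38.p6). Its seed, bases 2 to 8, is in capitals. The same mature sequence is made from Mir128-1 (chr1:128202404-128202424, plus strand) and Mir128-2 (chr9:112118644-112118664, minus strand).
miR-128-3p: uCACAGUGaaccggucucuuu
Matches to this seed were searched in the 3′UTRs of GENCODE protein-coding transcripts (the longest 3′UTR of each gene, mm10), as CACTGTG or ACTGTGA. The longest form, CACTGTGA, was found in 4 genes of the module, and these are the 5 matches that pair with the miRNA most fully, shown with their flanks and with the match in capitals. They lie in the last exon of Dnajb11 (chr16:22878451-22878458), Dnajc27 (chr12:4110457-4110464) and Dnajc3 (chr14:118980939-118980946), and at 2 places in the last exon of Dnajc5 (chr2:181550933-181550940 and chr2:181554144-181554151), all on the plus strand.
Dnajb11: gttctacttgatgtCACTGTGAcagctcag
Dnajc27: acattctttccctcCACTGTGAatgctcgt
Dnajc3: ctgcaatagcatgtCACTGTGActttaggc
Dnajc5 first: acaagaagaggcagCACTGTGAggacaaac
Dnajc5 second: ccctatttctggtgCACTGTGAacaagatc
None of these 4 genes was called lower by edgeR, by DESeq2 or at an unadjusted p under 0.05. Dnajc3 and Dnajc5 passed the test in the upward direction, and the log2 fold changes of Dnajb11 and Dnajc27 were 0.02 (SE 0.10) and 0.29 (SE 0.16), with adjusted p = 0.896 and 0.198 (quasi-likelihood test of edgeR, adjusted over all tested genes by the Benjamini-Hochberg method).

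Promoters were read from RefSeq (GRCm38.p6) as 250 bases before to 50 after the annotated start, and a window was matched for 59 of the 71 genes. Searched on both strands, the ER stress response element, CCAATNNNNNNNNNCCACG, was present in 2 of these, Hspa5 and Dnajc3, or 3.39% of the genes with a window, against 0.137% of all 27025 genes in the table. These are the windows of the 2 genes (Hspa5 at chr2:34771840-34772139 and Dnajc3 at chr14:118937682-118937981, both plus strand), with the match in capitals, shown because the 2 genes moved in opposite directions.
Hspa5: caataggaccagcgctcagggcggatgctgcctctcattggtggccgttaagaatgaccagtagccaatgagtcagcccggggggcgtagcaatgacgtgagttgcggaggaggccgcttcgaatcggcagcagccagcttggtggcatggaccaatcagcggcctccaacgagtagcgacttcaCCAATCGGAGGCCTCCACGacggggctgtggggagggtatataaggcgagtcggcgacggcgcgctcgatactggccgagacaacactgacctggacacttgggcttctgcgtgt
Dnajc3: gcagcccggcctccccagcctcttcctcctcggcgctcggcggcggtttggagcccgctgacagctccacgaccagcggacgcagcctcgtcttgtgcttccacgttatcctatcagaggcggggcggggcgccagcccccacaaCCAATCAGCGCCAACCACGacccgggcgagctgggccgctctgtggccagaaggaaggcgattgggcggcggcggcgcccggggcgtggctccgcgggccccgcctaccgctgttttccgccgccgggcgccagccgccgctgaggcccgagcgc
The match began 65 bases before the start of Hspa5 and 105 bases before that of Dnajc3. The heat shock element, searched as GAANNTTCNNGAA or TTCNNGAANNTTC (the one is the reverse complement of the other), was present in Dnajb6, Hspd1, Hspe1 and Hsph1, or 6.78% of the genes with a window, against 0.662% of all genes. Hspd1 and Hspe1 lie head to head and share 2 overlapping matches, whose joint span is shown in capitals in the Hspe1 window (chr1:55087898-55088197, plus strand).
Hspe1: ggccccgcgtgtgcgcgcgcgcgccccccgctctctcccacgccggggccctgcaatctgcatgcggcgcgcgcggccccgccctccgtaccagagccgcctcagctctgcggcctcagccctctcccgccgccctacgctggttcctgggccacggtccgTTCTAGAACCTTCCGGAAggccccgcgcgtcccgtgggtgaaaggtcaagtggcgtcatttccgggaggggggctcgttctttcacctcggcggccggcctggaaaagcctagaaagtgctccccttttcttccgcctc
Of these 4 genes, Dnajb6 passed the test, in the upward direction, while Hspd1, Hspe1 and Hsph1 did not pass it. Matches to letters are a description of the window and say nothing of a factor's binding.

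The libraries held 12385863 (WH7), 8096870 (WH8), 12440553 (WH9) and 14359838 (WH10) counts on genes. Mir128-1 was listed at 0 in all 4 libraries, and Mir128-2, a locus of the raised miRNA, had 0 counts in both Ctrl libraries against 2 and 10 counts in WH9 and WH10, of which the Ctrl values and that of WH9 are at or under the detection floor of 3 counts. Xist had 14543 and 11339 counts in the Ctrl libraries against 94 and 132 in the miR-128OE libraries, and the Y-linked gene Ddx3y had 13 and 7 against 1442 and 1768, so sex and genotype cannot be told apart in any comparison given here. The genes of the module are all autosomal. With autosomal genes alone in the fit, 23 and 4 of them were again called higher and lower. That fit compares the same libraries, so it cannot separate sex from genotype. Across all tested genes 31.5% were called (16.5% higher and 15.0% lower at an adjusted p under 0.05), the normalized counts of 68.1% did not overlap between the groups, and the median log2 fold change was -0.01.

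Of the 71 genes, 23 were higher in miR-128OE hearts, 4 were lower, 36 did not pass the test and 8 were not tested. The median log2 fold change of the 63 was 0.25, against -0.01 over all tested genes, and 47 of them lay above 0. The upward calls made up 36.5% of the 63, beside the background of 16.5%, and the downward calls 6.35%, beside 15.0%. Together the 71 genes took 0.618% and 0.616% of the counts in WH7 and WH8 and 0.740% and 0.735% in WH9 and WH10. Without WH9, 14 were higher and 1 lower, and without WH10 13 and 2 (over all genes 897 and 667 without WH9, and 1265 and 1020 without WH10). In RNA from whole hearts, more RNA per CM and a larger share of CM RNA cannot be told apart. Scaled to total counts in place of TMM factors, the median of all genes moved to -0.11, and 16 genes of the module were higher and 4 lower. Over all genes 1611 were then higher and 2948 lower, in place of 2347 and 2143. The module's median lay 0.27 above that of all genes under either scaling. A change of scaling shifts all genes nearly alike, so that distance could hardly have changed.

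**Figure D1:**
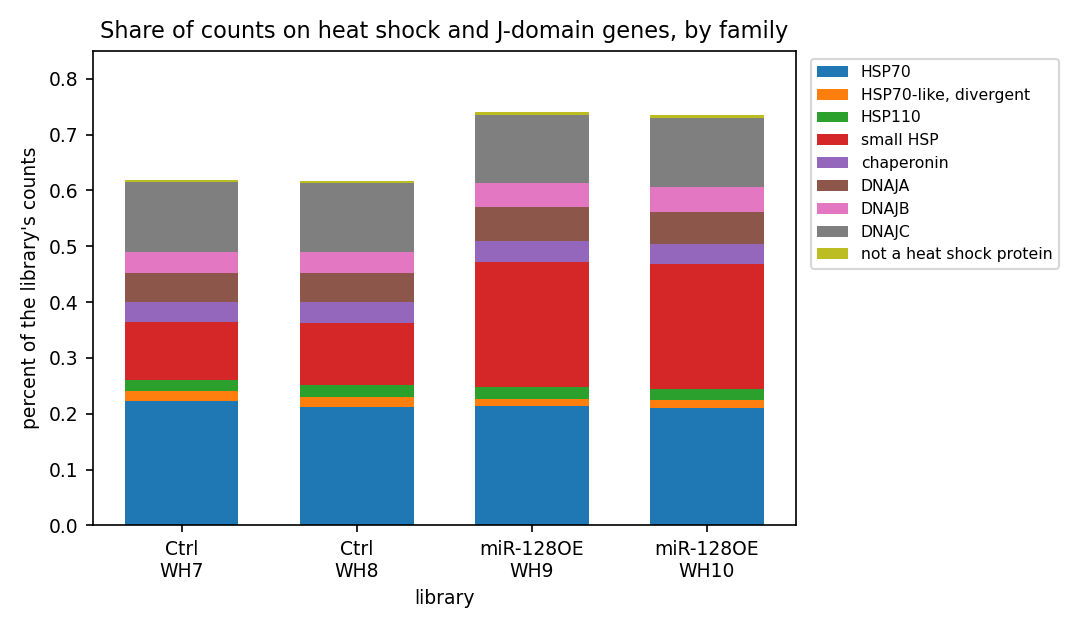
Percent of each library's counts (vertical axis) taken by the 9 families, stacked, in the 2 Ctrl and 2 miR-128OE libraries (horizontal axis). The small HSP segment takes 0.104% and 0.111% of the counts in WH7 and WH8 and 0.223% and 0.223% in WH9 and WH10, while the HSP70 segment stays between 0.210% and 0.222%.

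In what follows, normalized counts are raw counts scaled to a common library size with TMM factors, positions of genes are those of GENCODE on mm10, and higher or lower means an adjusted p under 0.05. The small HSPs had the largest median difference of the families. All 6 tested members of the family (Hspb1, Hspb2, Hspb3, Hspb6, Hspb7 and Hspb8) were higher in miR-128OE hearts (4 without WH9, and 5 without WH7 or WH10, with DESeq2, with upper-quartile factors, with total counts and with an offset for GC content and length), and the median of their log2 fold changes was 0.97. Their summed share of counts went from 0.104% and 0.111% to 0.223% and 0.223%, and their summed normalized counts were 2.22-fold higher. The HSP70 share was 0.222% and 0.212% in Ctrl and 0.214% and 0.210% in miR-128OE hearts, so in the miR-128OE libraries the small HSPs together held about as many counts as the HSP70s.

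Hspb8 (chr5:116408491-116422864), which works with Bag3 in the autophagic removal of damaged sarcomere proteins, had 594 and 561 normalized counts in WH7 and WH8 and 1578 and 1365 in WH9 and WH10. The miR-128OE pair lay well above the Ctrl pair. Hspb8 rose by 1.35 on the log2 scale (SE 0.10, 95% interval 1.13 to 1.56, adjusted p = 3.67e-05, quasi-likelihood test of edgeR with Benjamini-Hochberg adjustment). Hspb7 (chr4:141420779-141425310), a small HSP confined largely to heart and muscle and needed for thin filament assembly, had 6399.6 and 7046 normalized counts in Ctrl and 16689 and 16297 in miR-128OE hearts. It was 2.45-fold higher (log2 1.30, SE 0.09, adjusted p = 3.35e-05). Hspb1 (chr5:135887919-135889563), known as HSP25 in the mouse and a partner of actin filaments, had 1713 and 1639 normalized counts in Ctrl against 3555 and 3421. It rose by 1.06 on the log2 scale (SE 0.08, adjusted p = 4.10e-05), and the spread within each group was small beside that difference.

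Hspb6 (chr7:30552535-30555443), or HSP20, a substrate of protein kinase A in the heart, had 2359 and 2808 normalized counts in Ctrl and 4606 and 4930.4 in miR-128OE hearts. It rose by 0.89 on the log2 scale (SE 0.10, adjusted p = 0.000303). Calls on Hspb1, Hspb6, Hspb7 and Hspb8 were kept under each of the 13 alternatives tried. Hspb2 (chr9:50751072-50752354) and Hspb3 (chr13:113662896-113663676), muscle small HSPs that bind each other, showed smaller differences. Hspb2 had 615 and 481 normalized counts against 827 and 759 (log2 0.52, SE 0.12, adjusted p = 0.0100). Hspb3 had 134 and 161 against 201 and 209 (log2 0.48, SE 0.15, adjusted p = 0.0368). For both genes the groups did not overlap. The call on Hspb2 was lost without WH9, where the log2 fold change was 0.48 (SE 0.17). That on Hspb3 was lost without WH7, WH9 or WH10, at 0.35 (SE 0.17), 0.52 (SE 0.21) and 0.47 (SE 0.21). Such fits leave 1 library in a group. The call on Hspb3 was also lost with DESeq2 (adjusted p = 0.128), with upper-quartile factors (0.0504), with total counts (0.0808) and with the offset for GC content and length (0.122). Exons of Hspb2 share 252 bases, 30.2% of their length, with Cryab on the opposite strand, and since the handling of strand is not given in the sources used here, reads of Cryab could have been counted on it. Hspb9, known from testis, had too few counts to test, 4.57 and 4.24 in Ctrl and 2.97 and 6.73 in miR-128OE hearts.

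Cryab, αB-crystallin, belongs to the same protein family but not to the symbol pattern. It had 5241 and 5153 normalized counts in Ctrl and 10990 and 10492 in miR-128OE hearts, a log2 fold change of 1.05 (SE 0.08, adjusted p = 6.68e-05, edgeR), which is close to that of Hspb1. Cryaa and Odf1, the other members outside the pattern, were listed at 0 in all libraries.

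**Figure D2:**
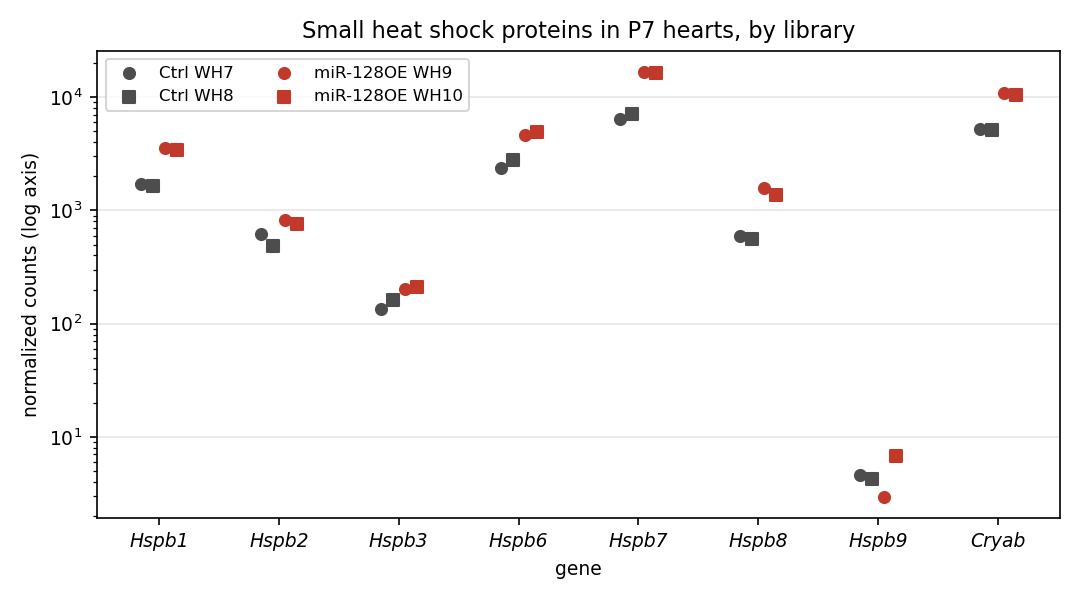
Normalized counts (log axis) of the 7 small HSP genes and Cryab in each library, with Ctrl WH7 and WH8 in grey and miR-128OE WH9 and WH10 in red, and circles and squares for the first and second library of a group. In Hspb1, Hspb2, Hspb3, Hspb6, Hspb7, Hspb8 and Cryab both red points lie above both grey points, and Hspb9 has under 10 normalized counts in every library.

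Some markers of CMs also differed, with a smaller median than the small HSPs. Of 8 CM markers, 4 were higher (Actn2, Atp2a2, Pln and Myh6) and 1 was lower (Ryr2), their median being 0.29 on the log2 scale (1 higher and 0 lower without WH9, 3 and 0 without WH10), and their summed share of counts was 4.30% and 4.51% in Ctrl and 5.04% and 5.03% in miR-128OE hearts. Immediate-early genes, which respond within minutes to stimulation and to handling of tissue, moved too: 7 of 7 were higher (6 without WH10), with shares of 0.0252% and 0.0221% against 0.0643% and 0.0667% and Fos at 69.5 and 66.4 against 599 and 594 normalized counts. The part of either in the differences given here was not tested.

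Per kilobase of mRNA, Hspa8 had the highest level of the module in both groups, at 6211 and 5882 normalized counts per kb in Ctrl and 6920.3 and 6636 in miR-128OE hearts. In Ctrl hearts Hspb7 (2311 and 2544 per kb) and Hspa5 (2389 and 2139.8) came next and overlapped each other, followed by Hspb6 (1731 and 2060.4) and Hspb1 (1897 and 1816), which also overlapped. In miR-128OE hearts the order after Hspa8 was Hspb7 (6027 and 5885 per kb), Hspb1 (3937 and 3788), Hspb6 (3379 and 3617) and Hspa5 (1719.9 and 1713), with no overlap between neighbours. Hspd1 and Hspe1 followed in both groups. Hspa5 thus went from rank 3 to rank 5, below the 3 small HSPs. Dnaja1, whose annotated transcript length was uncertain, came lower, at rank 15 in both groups.

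The main cytosolic HSP70s did not pass the test. Hspa8, the constitutive cytosolic HSP70, had 14869.5 and 14083 normalized counts in Ctrl and 16567 and 15887 in miR-128OE hearts, which do not overlap but differ by only 0.16 on the log2 scale (95% interval -0.03 to 0.36, adjusted p = 0.179, edgeR). The stress-inducible pair Hspa1a and Hspa1b was low, with 31.1 and 21.2 against 23.8 and 35.3 normalized counts for Hspa1a and 29.3 and 33.9 against 25.7 and 25.2 for Hspa1b. Their log2 fold changes were 0.15 (95% interval -0.66 to 0.97) and -0.30 (95% interval -1.02 to 0.43), and as near-identical copies they can exchange reads. Hspa1l, whose exons overlap an antisense gene over 71.9% of their length, and Hspa14, an HSP70 of the ribosome, had log2 fold changes of -0.09 and -0.11 and did not pass. Hspa2, best known from male germ cells, was the cytosolic HSP70 that passed. It had 206 and 192 normalized counts in Ctrl and 381 and 395 in miR-128OE hearts, a fold of 1.95 (log2 0.96, SE 0.12, adjusted p = 0.000483). Both miR-128OE libraries held nearly the same value, far above the Ctrl pair, and the call was kept under each alternative.

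Hspa12a (chr19:58795750-58943672), a distant HSP70 relative that lacks the usual substrate-binding domain, had the largest decrease of the module. It had 709.6 and 861 normalized counts in Ctrl and 426 and 424 in miR-128OE hearts and fell by 0.88 on the log2 scale (SE 0.11, adjusted p = 0.00053, edgeR), a call kept under each alternative. Its paralog Hspa12b, known from endothelial cells, had 1262 and 1247 against 1219 and 1227 (log2 -0.04, 95% interval -0.21 to 0.14). Their folds, side by side, were 0.543 and 0.975, and the difference between the paralogs was not tested.

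The HSP110 family, which exchanges nucleotide on HSP70, had no call among 3 genes by edgeR or DESeq2, and 1 upward difference at an unadjusted p under 0.05. Hsph1 had 279 and 295 normalized counts in Ctrl and 277 and 285 in miR-128OE hearts (log2 -0.03, 95% interval -0.29 to 0.23), Hspa4 had 1702 and 1808 and 2019 and 1979 (log2 0.19, adjusted p = 0.0923, and 0.0373 without WH8), and Hspa4l had 257 and 319 and 339.6 and 263. In Hsph1 and Hspa4l the groups overlapped. Of the genes with a matching symbol that are not heat shock proteins, Hspbp1, a nucleotide exchange factor of HSP70, was higher, at 294 and 246 against 395 and 417 normalized counts (log2 0.58, SE 0.12, adjusted p = 0.00732, and 0.0626 without WH10). Hspbap1, named for its binding to Hspb1, was at -0.55 (adjusted p = 0.128, and 0.0438 without WH8), and Hspb11, a protein of intraflagellar transport, was at 0.27 (adjusted p = 0.333).

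J-domain proteins outnumber HSP70s and decide which clients reach them. Of 45 genes, 38 were tested, 14 were higher and 2 lower (8 and 0 without WH9, 7 and 1 without WH10, and 9 and 2 with total counts), and the median log2 fold change was 0.28. Upward calls made up 36.8% of the 38, beside 16.5% of all tested genes, and downward calls 5.26%, beside 15.0%. By class, 3 of 4 DNAJA, 5 of 10 tested DNAJB and 6 of 24 tested DNAJC genes were higher, and both lower genes were DNAJC. Of the 24 DNAJC genes, 25.0% were called higher and 8.33% lower. The DNAJA and DNAJB classes, which resemble bacterial DnaJ over more of their length, had medians of 0.41 and 0.42, and DNAJC, which shares only the J-domain, had 0.24. The DNAJ share of counts went from 0.214% and 0.212% to 0.226% and 0.225%.

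Among the general cytosolic J-domain proteins, Dnajb5 had the largest increase. It had 492 and 462 normalized counts in Ctrl and 750.5 and 819 in miR-128OE hearts (log2 0.72, SE 0.09, adjusted p = 0.000687, edgeR), a call kept under each alternative. The groups were well separated. Dnajb4, a relative of Dnajb1, had 533 and 507 against 660.4 and 727 (log2 0.41, SE 0.09, adjusted p = 0.00997, and 0.112 without WH10). Dnajb1 itself, the main stress-induced HSP40 of the cytosol, had 317 and 325 against 353 and 335 (log2 0.10, 95% interval -0.15 to 0.35, adjusted p = 0.521), so it differed by little more than the spread within groups. Dnajb6, a suppressor of protein aggregation that sits at the Z-disc of striated muscle, had 1182 and 1299 against 1538 and 1565 (log2 0.32, SE 0.08, adjusted p = 0.0154). Its call was lost without WH9 or WH10 (adjusted p = 0.106 and 0.107) and with total counts (0.0608). Dnajb2, which binds ubiquitinated clients, rose by 0.47 on the log2 scale (SE 0.09, adjusted p = 0.00458), from 458 and 478 to 643 and 654 normalized counts.

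The DNAJA genes of the cytosol are the closest co-chaperones of Hspa8. Dnaja4 rose from 849.6 and 947 to 1266 and 1318 normalized counts (log2 0.53, SE 0.09, adjusted p = 0.00206, edgeR), with the reservation that 44.1% of its exon length overlaps Wdr61 on the opposite strand. Dnaja2 had 2089.6 and 2151 against 2719.8 and 2476 (log2 0.29, SE 0.08, adjusted p = 0.0232), and its call was lost without WH9 or WH10 (adjusted p = 0.238 and 0.0624) and with total counts (0.0857). Dnaja1 had 2329 and 2387 against 2647 and 2457, which did not pass (log2 0.11, 95% interval -0.06 to 0.29).

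The cytosolic and nuclear DNAJC genes serve narrower tasks. Dnajc21, a factor of ribosome assembly, fell by 0.45 on the log2 scale (SE 0.09, adjusted p = 0.00407, edgeR), from 846 and 899 to 649 and 624 normalized counts, although the call was lost without WH9 or WH10 (adjusted p = 0.0509 and 0.0671). Dnajc2, which sits on the ribosome, had 932 and 885 against 847 and 819 and did not pass (log2 -0.13, adjusted p = 0.269). Dnajc7, with 2001 and 2119 against 2122 and 2040.5, and the splicing factor Dnajc8, with 1622 and 1607 against 1669 and 1636, are abundant genes whose groups hardly differed (log2 0.02, 95% interval -0.16 to 0.19, and 0.03, 95% interval -0.14 to 0.20). Dnajc9, a histone chaperone, was at -0.26 (adjusted p = 0.137). Dnajc12, Dnajc17 and Dnajc24 had log2 fold changes from 0.31 to 0.65, none of which passed, and Dnajb3, with at most 18.3 normalized counts in a library, had one of -0.38 (95% interval -1.59 to 0.83). In all, 14 of 36 tested cytosolic and nuclear genes were higher and 2 lower, the median being 0.18 (10 and 1 without WH9, 9 and 1 without WH10). With all libraries, 38.9% of the 36 were higher and 5.56% lower, beside 16.5% and 15.0% of all tested genes. Dnajb7 had at most 6.73 normalized counts in a library and Dnajb8 was listed at 0 in all of them, and neither was tested.

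**Figure D3:**
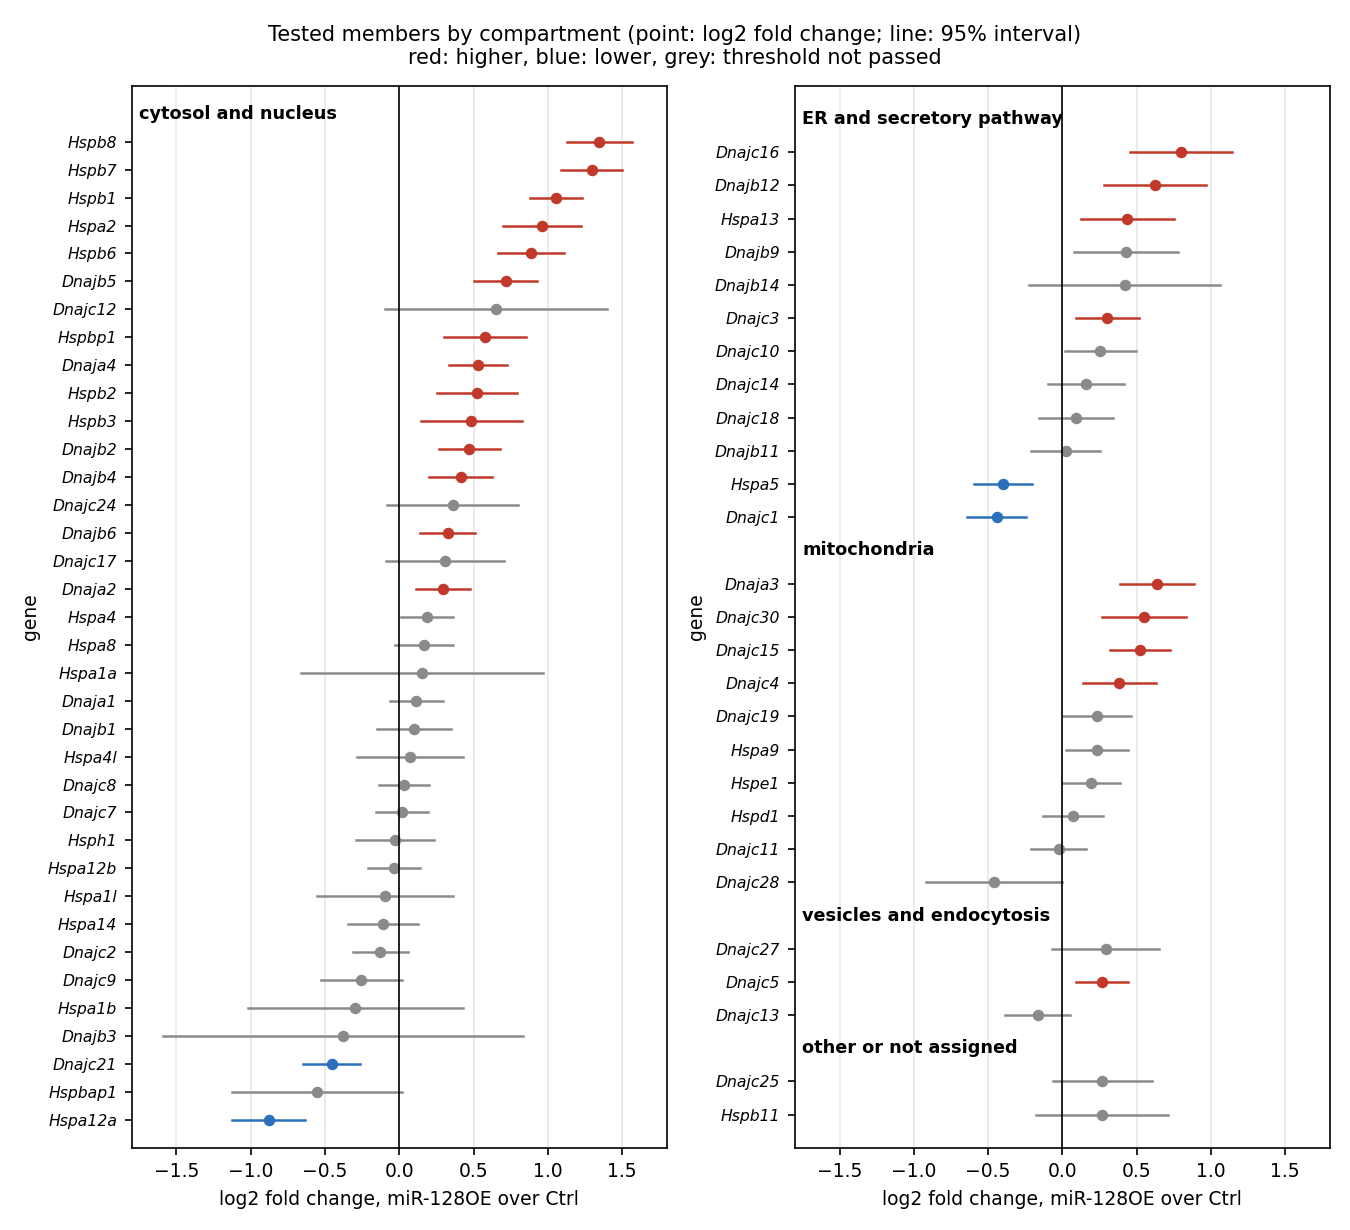
Log2 fold change of each of the 63 tested genes, miR-128OE over Ctrl (horizontal axis), grouped by compartment and ordered by size within it (vertical axis), with points for the fitted value, lines for the 95% interval, and red, blue and grey for higher, lower and not passed at an adjusted p of 0.05. Hspb8 is highest at 1.35 and Hspa12a lowest at -0.88, and in the ER panel Hspa5 and Dnajc1 are the blue points.

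The ER genes moved in both directions. Of 12 genes, 4 were higher (Dnajc16, Dnajb12, Hspa13 and Dnajc3) and 2 were lower (Hspa5 and Dnajc1), and the median log2 fold change was 0.28. These calls were 33.3% and 16.7% of the 12, beside 16.5% higher and 15.0% lower over all tested genes. Without WH9, 2 were higher and none was lower, and without WH10, 2 and 1. Hspa5 had more counts than any other of these genes in every library. The summed share of counts went the other way from the median, from 0.0973% and 0.0872% in Ctrl to 0.0771% and 0.0794% in miR-128OE hearts.

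Hspa5 (chr2:34772090-34776529), known as BiP and the HSP70 of the ER lumen, had 6243 and 5591 normalized counts in Ctrl and 4494 and 4477 in miR-128OE hearts. The 2 miR-128OE libraries held nearly the same value, below both Ctrl libraries. It fell by 0.40 on the log2 scale (SE 0.09, 95% interval -0.60 to -0.20, adjusted p = 0.00818, edgeR), and the call was lost without WH9 or WH10 (log2 -0.39 and -0.38, adjusted p = 0.120 and 0.105). Dnajc1, an ER membrane J-domain protein that recruits BiP to ribosomes, fell by 0.44 (SE 0.09, adjusted p = 0.00562, and 0.111 without WH9), from 917 and 878 to 629 and 693 normalized counts. Dnajb11, a J-domain protein that hands unfolded clients to BiP, had 920.0 and 752 against 854 and 850.3, and the miR-128OE pair lay between the Ctrl values (log2 0.02, 95% interval -0.21 to 0.25).

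Dnajc16 rose from 108 and 120.1 to 198 and 196 normalized counts (log2 0.80, SE 0.15, adjusted p = 0.00441, edgeR), a call kept under each alternative. Dnajb12, an ER membrane protein of the degradation pathway, rose from 131 and 126 to 185 and 210.3 (log2 0.62, SE 0.15, adjusted p = 0.0131, and 0.111 without WH10). Hspa13, a small microsomal HSP70, had 195 and 232 against 268 and 304 (log2 0.44, SE 0.14, adjusted p = 0.0395). Dnajc3, or P58IPK, an ER co-chaperone that rises in the unfolded protein response, had 812 and 698 against 929 and 941 (log2 0.30, SE 0.09, adjusted p = 0.0353). These last 2 calls were weak: Hspa13 did not pass without WH7, WH9 or WH10 (adjusted p = 0.135, 0.0935 and 0.229), nor Dnajc3 without WH8, WH9 or WH10 (0.0862, 0.168 and 0.170), and both were lost with DESeq2 (0.116 and 0.0872) and with total counts (0.0960 and 0.138).

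Dnajb9, which keeps the stress sensor Ire1 inactive together with BiP, had 214 and 195 in Ctrl and 313 and 241 in miR-128OE hearts. It did not pass (log2 0.43, SE 0.15, adjusted p = 0.0615, edgeR), but it did without WH7 (0.0475) or WH10 (0.0430). Dnajc10, an ER reductase with a J-domain, was at 0.25 (adjusted p = 0.0981, and 0.00465 without WH7). Dnajb14, Dnajc14 and Dnajc18 had log2 fold changes of 0.42, 0.16 and 0.09, none past the threshold, and in Dnajb14 it was WH9 alone that stood above the rest, at 89.1 and 54.7 normalized counts in WH9 and WH10 against 53.0 and 53.7 in Ctrl.

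Other genes of the ER folding machinery were compared from a list of 19, of which 5 were lower (Pdia4, Xbp1, Calr, Creld2 and Pdia6) and 1 was higher (Atf6). Of the 19, 26.3% were lower and 5.26% higher, beside 15.0% and 16.5% of all tested genes. Their median was -0.17 on the log2 scale. Calr, calreticulin, a lectin chaperone, had 6935 and 5655 normalized counts in Ctrl and 4342 and 4523 in miR-128OE hearts (log2 -0.51, SE 0.11, adjusted p = 0.00658, edgeR). Pdia4, a disulphide isomerase, fell by 0.67 (SE 0.10, adjusted p = 0.00131), and Xbp1, a transcription factor of the unfolded protein response, by 0.52 (SE 0.11, adjusted p = 0.00642). Atf6, an ER-anchored transcription factor that induces BiP, rose from 476 and 434 to 697 and 689.7 (log2 0.60, SE 0.09, adjusted p = 0.00157). Creld2 and Pdia6 fell by 0.58 and 0.40. Calls in this list were lost in fits that left 1 library in a group. Without WH9 Xbp1, Calr, Creld2 and Pdia6 did not pass (log2 -0.41, -0.46, -0.48 and -0.43). Calr and Pdia6 did not pass without WH10 (log2 -0.52 and -0.35), nor Pdia6 without WH7 (log2 -0.20). With total counts 11 of the 19 were lower, and with an offset for GC content and length 8 were. Without WH8, 9 of the 19 were lower, and without WH9 or WH10, 1 and 3 were. Without WH7, 4 were lower and 4 were higher, since P4hb, Pdia3 and Ppib then passed as higher (log2 0.25, 0.27 and 0.65, adjusted p = 0.0234, 0.0162 and 0.00370).

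A list of genes known to be induced in the unfolded protein response had 6 members in the module (Hspa5, Dnajb9, Dnajb11, Dnajc3, Dnajc10 and Hspa13), of which 2 were higher and 1 was lower (none higher without WH9, with DESeq2 or with total counts). Of 8 such genes outside it, 5 were lower (1 without WH9 and 3 without WH10), their median being -0.45, and none was higher by edgeR, by DESeq2 or at an unadjusted p under 0.05. Of the 6 in the module, 33.3% were higher and 16.7% lower, beside 16.5% and 15.0% of all tested genes. The 5 lower genes outside it, 62.5% of the 8, were Pdia4, Hsp90b1, Creld2, Hyou1 and Pdia6. Hsp90b1, the HSP90 of the ER, had 6889.7 and 6402 normalized counts in Ctrl and 4675 and 4756 in miR-128OE hearts (log2 -0.50, SE 0.08, adjusted p = 0.00237, edgeR, and 0.0661 without WH9). Hyou1, the HSP110 of the ER and the exchange factor of BiP, had 653 and 599 against 487 and 487 (log2 -0.37, SE 0.09, adjusted p = 0.0166, and 0.152 and 0.138 without WH9 or WH10). Sdf2l1, a partner of Dnajb11, was at -0.65 (adjusted p = 0.0612, and 0.00724 without WH8).

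**Figure D4:**
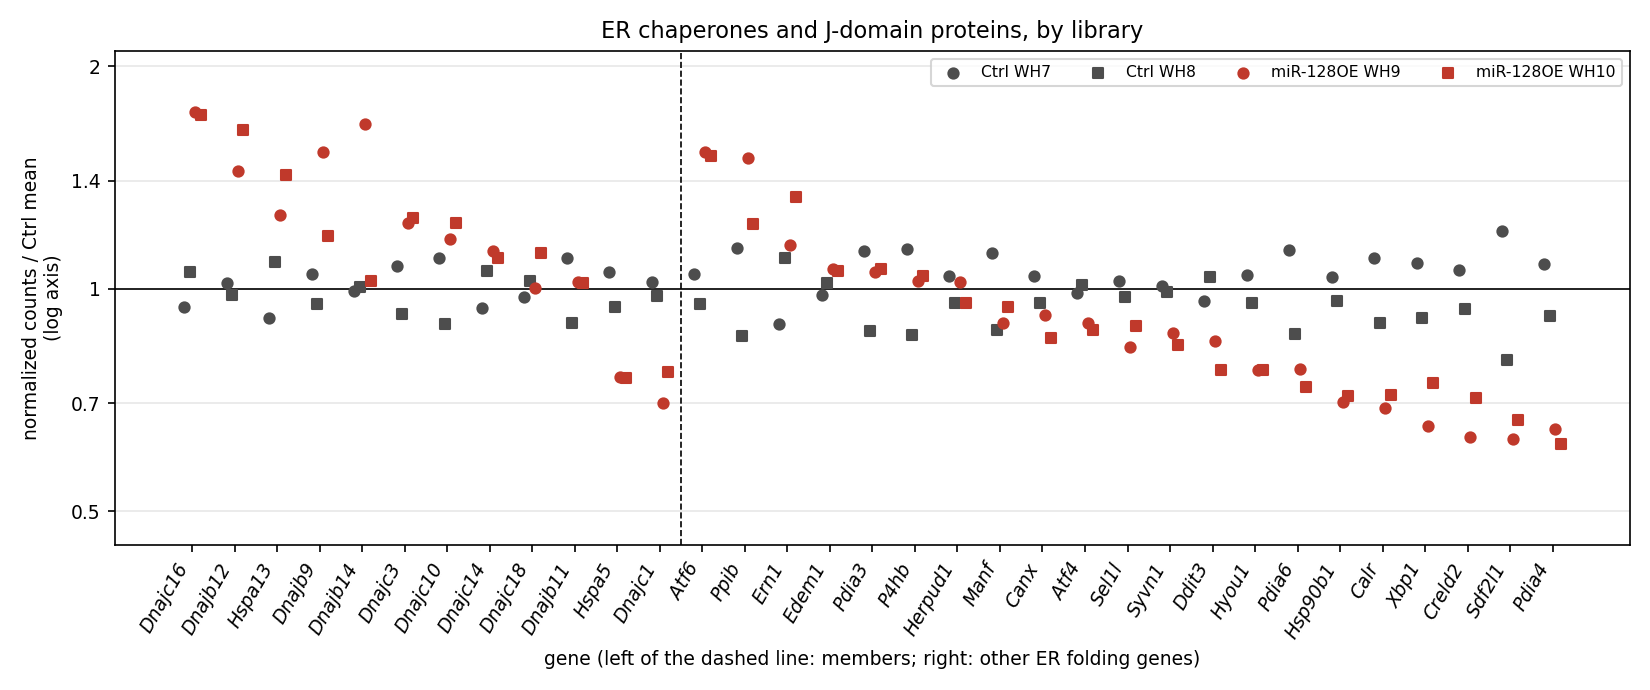
Normalized counts of each library divided by the Ctrl mean (log axis) for the 12 ER genes of the module, left of the dashed line, and for the 19 genes of the ER list with Hsp90b1 and Hyou1, right of it. In Hspa5, Hsp90b1, Calr and Pdia4 both miR-128OE libraries (red) lie below both Ctrl libraries (grey), and in Dnajc16, Dnajb12 and Atf6 both lie above.

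Calls among the mitochondrial genes went upward. Of 10 genes, 4 were higher (Dnaja3, Dnajc15, Dnajc30 and Dnajc4, 2 of the 10 without WH9 or without WH10), and none was lower by edgeR or DESeq2, although Dnajc28 was lower at an unadjusted p under 0.05. The upward calls made up 40.0% of the 10, beside 16.5% of all tested genes. The median log2 fold change was 0.23. The shares of counts were 0.0915% and 0.0961% in Ctrl and 0.104% and 0.0989% in miR-128OE hearts.

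Dnaja3, known as Tid1, the general J-domain partner of mitochondrial HSP70, had 447 and 411 normalized counts in Ctrl and 726 and 615 in miR-128OE hearts. The groups did not overlap, and the log2 fold change was 0.64 (SE 0.11, adjusted p = 0.00265, edgeR), a call kept under each alternative. Dnajc15, a J-domain protein of the inner membrane that restrains respiratory complex I, rose from 743 and 783 to 1154 and 1034 (log2 0.52, SE 0.09, adjusted p = 0.00256), also kept under each alternative. Dnajc19, its paralog in the import motor, had 538 and 493 against 571 and 641 and did not pass (log2 0.23, SE 0.10, adjusted p = 0.112). Dnajc30 rose from 200.3 and 187 to 283 and 285 (log2 0.55, adjusted p = 0.00963) but shares 26.2% of its exon length with Bud23 on the opposite strand, and its call was lost without WH9 or WH10 (adjusted p = 0.0730 and 0.0639). Dnajc4 had 307 and 339 against 414 and 426 (log2 0.38, adjusted p = 0.0254), and was lost without WH7, WH9 or WH10 (0.0689, 0.125 and 0.142), with DESeq2 (0.0908), with total counts (0.0755) and with the GC and length offset (0.161).

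The folding chambers and the HSP70 of the mitochondrial matrix did not pass. Hspa9, or mortalin, which pulls proteins through the inner membrane, had 3145 and 3607 normalized counts in Ctrl and 4121 and 3795 in miR-128OE hearts (log2 0.23, 95% interval 0.02 to 0.44, adjusted p = 0.0872, edgeR, and 0.00696 without WH8). Hspd1, the subunit of HSP60, had 3178 and 3437 against 3695 and 3262 with overlapping groups (log2 0.07, 95% interval -0.13 to 0.28). Hspe1, its HSP10 lid, had 968 and 886 against 1029 and 1097 (log2 0.19, adjusted p = 0.116, and 0.0403 without WH7). Dnajc11, a protein of the cristae junctions, was at -0.03 (95% interval -0.21 to 0.16), and Dnajc28 at -0.46 (adjusted p = 0.115). Grpel1, the nucleotide exchange factor of Hspa9, rose from 587 and 654 to 999 and 954 (log2 0.66, SE 0.09, adjusted p = 0.00083).

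A list of 10 genes covered the mitochondrial import motor and proteases. Among all tested genes, 16.5% were called higher and 15.0% lower. In this list none was lower by edgeR, by DESeq2 or at an unadjusted p under 0.05, which says little for 10 genes. Of the 10, 5 were higher. They were Pmpcb, a subunit of the peptidase that removes import signals (733 and 780.2 against 1364 and 1295, log2 0.82, SE 0.08, adjusted p = 0.000207, edgeR), the motor subunit Pam16 (log2 0.49, adjusted p = 0.00891, and 0.0907 without WH10), and the proteases Lonp1, Spg7 and Afg3l2 (log2 0.26 to 0.30). Without WH9 or WH10, 2 and 1 of the 10 were higher, and with DESeq2 or total counts 2 were.

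In vesicle traffic, Dnajc5, cysteine string protein, had 1298 and 1321 in Ctrl and 1608 and 1541 in miR-128OE hearts and was higher (log2 0.27, SE 0.08, adjusted p = 0.0274, edgeR). The call was lost without WH9 or WH10 (0.220 and 0.109), with DESeq2 (0.0713), with upper-quartile factors (0.0563) and with total counts (0.121). Dnajc13, a protein of endosomes, was at -0.17 and the GTPase-like Dnajc27 at 0.29, neither of which passed. Dnajc25, with no compartment assigned here, was at 0.27 (adjusted p = 0.194). The others without a test were Dnajc6 (auxilin, which uncoats clathrin vesicles), Dnajc5b, Dnajb13 and Dnajc22, with at most 9.89 normalized counts in a library, and Dnajc5g, listed at 0 in all of them.

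Seed matches of miR-128-3p in the 3′UTR were counted over the module. Of the 63 tested genes, 23 (36.5%) held at least 1 match, against 31.0% of the 13495 tested genes with an annotated 3′UTR. Of these 23 genes, 9 were higher and none was lower (edgeR), the median log2 fold change being 0.27, and of the 40 without a match 14 were higher and 4 lower, the median being 0.23. Among all tested genes, 655 were higher and 655 lower of the 4182 with a match (median -0.01), and 1631 and 1329 of the 9313 without (median -5.01e-05). The medians of the module were thus above those of all genes both with and without a match, and whether a match made a difference within it was not tested. The 4 lower genes, Hspa12a, Dnajc21, Dnajc1 and Hspa5, held no match, nor did the 6 tested small HSPs. Dnajc3 and Dnajc5 held the most, 4 each, and both were among the higher genes. The log2 fold changes ranged from -0.46 to 0.80 with a match and from -0.88 to 1.35 without, and 3′UTRs with a match were longer (median 1836 against 825 bases).

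**Figure D5:**
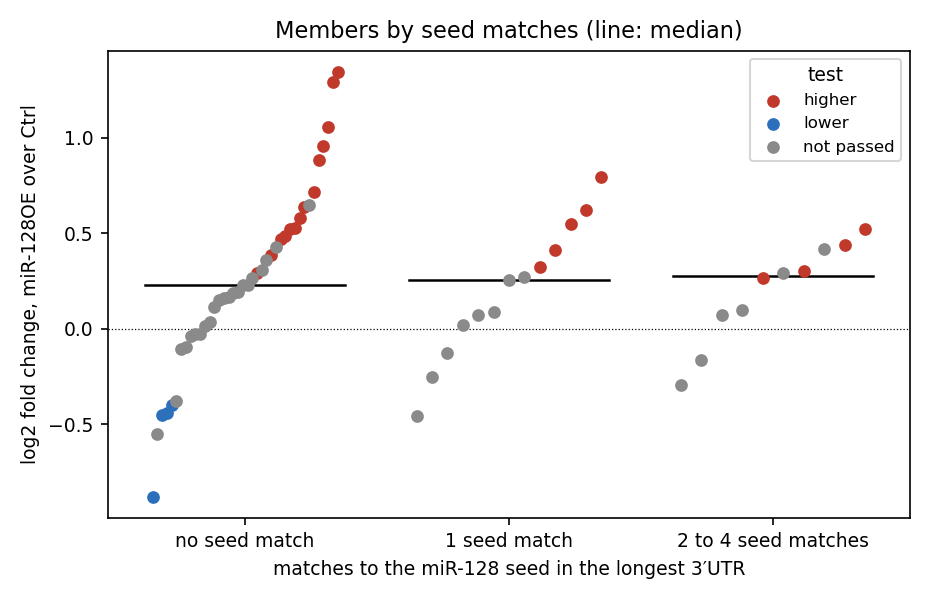
Log2 fold change, miR-128OE over Ctrl (vertical axis), of the 63 tested genes by the number of miR-128 seed matches in the longest 3′UTR (horizontal axis), with black lines for medians and red, blue and grey for higher, lower and not passed. The 40 genes without a match, the 13 with 1 and the 10 with 2 to 4 have medians of 0.23, 0.25 and 0.28, and the blue points stand among the genes without a match.

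Genes that regulate or assist the module were described from lists of their own. Of the heat shock factor list, Hsf1, the master factor of the heat shock response, had 422 and 554 normalized counts in Ctrl and 442 and 466 in miR-128OE hearts, with overlapping groups (log2 -0.09, 95% interval -0.39 to 0.20). Hsf2 was at 0.32 (adjusted p = 0.0813, edgeR), Hsf4 at -0.42, and Hsf5 was too low to test. Hsbp1, a small protein that binds Hsf1, was the gene of this list that rose (log2 0.35, SE 0.08, adjusted p = 0.00776, and 0.0778 and 0.0685 without WH9 or WH10). Of 10 genes in the module known as heat shock factor targets, 2 were higher (Hspb1 and Dnajb4), none was lower by edgeR, by DESeq2 or at an unadjusted p under 0.05, and the median was 0.13. Of all tested genes, 16.5% were called higher. Without WH10 1 was higher, since Dnajb4 did not pass (adjusted p = 0.112), and without WH7 3 were. Of 9 such genes outside the module, 3 were higher (Cryab, Bag3 and Ahsa1) and 1 was lower (Hsp90aa1). Without WH9 or WH10, 2 were higher and none was lower, with Ahsa1 no longer past the threshold (adjusted p = 0.143 and 0.121).

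Of the 4 HSP90 genes, Hsp90aa1 and Hsp90b1 were lower, Trap1 was higher and Hsp90ab1 did not pass. Hsp90aa1, the inducible cytosolic HSP90, fell from 6792 and 7169 to 5734 and 5759 normalized counts (log2 -0.28, SE 0.08, adjusted p = 0.0294, edgeR), a call lost without WH9 or WH10 (0.255 and 0.221) and with the GC and length offset (0.0522). Hsp90ab1, the constitutive form, had 21896 and 20812 against 18905 and 18064 (log2 -0.21, adjusted p = 0.0999, and 0.0320 without WH8 and 0.0182 with total counts). Trap1, the mitochondrial HSP90, was higher at 786 and 991 against 1151 and 1152 (log2 0.38, SE 0.11, adjusted p = 0.0257), and lost its call without WH7, WH9 or WH10 (0.0712, 0.125 and 0.107) and with total counts (0.0732).

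Nucleotide exchange factors of the BAG type, which release clients from HSP70, included the largest rise of the pathway lists given here. Bag2 had 277 and 240.3 normalized counts in Ctrl and 627 and 672 in miR-128OE hearts (log2 1.32, SE 0.11, adjusted p = 8.37e-05, edgeR). Bag3, the partner of Hspb8, had 1063 and 1102 against 1594 and 1594 (log2 0.56, SE 0.08, adjusted p = 0.000877). With Grpel1 these made 3 higher genes of 10 in the list, against 1 lower, Hyou1. All 3 rises were kept under each alternative.

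Of 22 co-chaperones of HSP90 and HSP70, 4 were higher (Cdc37l1, Ahsa1, Ppp5c and Cdc37, log2 0.25 to 0.33) and none was lower by edgeR or DESeq2 (8 higher and 2 lower at an unadjusted p under 0.05). The upward calls made up 18.2% of the 22, close to the 16.5% of all tested genes. Without WH9 or WH10 none was higher, and with total counts none was higher and 2 were lower. Of 13 tested genes of the cytosolic chaperonin TRiC and of prefoldin, which fold actin and tubulin, 5 were higher (Cct2, Cct7, Cct4, Pfdn1 and Cct3, log2 0.24 to 0.38) and none was lower by edgeR, by DESeq2 or at an unadjusted p under 0.05. The upward calls made up 38.5% of the 13. None was higher without WH9 or WH10, and 1 was with total counts.

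Markers of other cell types were counted beside these results. Fibroblast, macrophage and atrial lists had no call among 6, 5 and 4 tested genes by edgeR, by DESeq2 or at an unadjusted p under 0.05, but without WH7 6 fibroblast and 3 atrial genes were higher, and without WH8 2 fibroblast, 1 macrophage and 3 atrial genes were lower. Of 5 endothelial genes 2 were higher (none without WH9 and 1 without WH10), and of 4 mural genes 2 were higher and 1 lower (1 and 0 without WH9, 1 and 1 without WH10). The atrial share of counts was 0.337%, 0.0482%, 0.160% and 0.174% in WH7, WH8, WH9 and WH10, so the Ctrl libraries differed from each other more than the groups did. Brown fat genes were higher (2 of 2, or 1 without WH7 or without WH9, Ucp1 at 51.2 and 4.24 normalized counts in Ctrl and 250.5 and 159 in miR-128OE hearts), as was 1 of 2 tested red cell genes, while of 2 tested nerve genes 1 was higher and 1 lower, and none of 4 skeletal muscle genes had enough counts to test. Their part in the differences of the chaperone genes was not tested.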

How the data were processed

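RNA-seq counts came from 2 Ctrl and 2 miR-128OE P7 heart libraries. After filtering by quality, the authors used TopHat2 for alignment to mm10, counted reads on known genes and deposited raw counts per Entrez gene. Gene models, strand handling and the treatment of multiply mapped reads are not given in the sources used here. A symbol was found for 24374 of 24454 identifiers (RefSeq, GRCm38.p6).

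From the counts, edgeR 4.0.16 (R 4.3.3; filterByExpr, TMM, quasi-likelihood test) compared the groups, with Benjamini-Hochberg adjustment over 14266 genes and a threshold of 0.05. The SE is the log2 fold change over the square root of F, and intervals are at 95%. Normalized counts are scaled to the mean effective library size. At totals from 8096870 to 14359838 counts the detection floor was 3 counts per library, for counting error only. Sites, promoters and summaries used Python 3.11.15.

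Named genes were a fixed set of members and co-chaperones, the 10 members called in each direction with the largest change (average log2 CPM of at least 1, no overlap between groups) and the 3 smallest p-values per pathway list, and further genes were picked with their values in view. The members and lists were chosen with earlier results of these data known. Alternatives were the exact test, DESeq2 1.42.0, other size factors and filters, a GC and length offset, autosomal genes alone and each library left out. A few tested genes are not reported here.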

Additional observations from a re-analysis of the deposited data

How the results depend on the processing

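The counts were recomputed under 13 alternatives. Those for the small HSPs, and those by direction for each family, compartment and gene list, were added after the data were seen. Leaving out 1 library (the lone library of a group is then assumed to vary like the other group), all genes called ranged from 1564 to 5038, genes of the module called higher from 13 to 24 and lower from 1 to 5, mitochondrial calls from 2 to 5, ER calls from 2 to 7, cytosolic and nuclear calls from 10 to 18, and small HSPs from 4 to 6. The low ends came without WH9 or WH10, and the cause was not tested. Under the other 9 alternatives, all genes called ranged from 3124 (DESeq2) to 5323 (no filter), genes of the module called higher from 16 (total counts) to 26 (no filter), and 4 were lower throughout. Of 73 named genes past the threshold, 29 were kept under each alternative and 44 were lost under at least 1, of 99 not past it 33 were gained, and none of the 172 reversed. Upward calls were 52.3% of all calls, and 35.3% with total counts. No paired analysis was possible because the labels give no replicate numbers. With 2 libraries per group and a common biological coefficient of variation of 8.78%, differences of genes with few counts (Hspa1a, Hspa1b, Dnajb3) could not be resolved at this depth.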

Other observations

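The globin genes Hba-a1, Hbb-bs and Hbb-bt were listed at 0 in all 4 libraries, while Alas2, the red cell enzyme of haem synthesis, had 445 and 304 normalized counts in Ctrl and 823 and 756 in miR-128OE hearts (log2 1.05, SE 0.15, adjusted p = 0.00106, edgeR). The globins have near-identical copies, as do Hspa1a and Hspa1b, and 16 pseudogenes in the reference carry a symbol of the module's pattern. How reads that fit several copies were counted is not given in the sources used here.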
